A study of Mus musculus with 16 samples.

Results

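This account covers 9 genes of the SWI/SNF chromatin remodelling complex in C2C12 cells: the BAF60 subunit genes Smarcd1, Smarcd2 and Smarcd3, the ATPase genes Smarca4 and Smarca2, and the core subunit genes Smarcb1, Smarcc1, Smarcc2 and Smarce1. They were taken by gene name from a table of 35275 genes. No cut-off on measured values picked them, but they were chosen with earlier results of these data known. All 9 passed the filter on low values, a mean FPKM of at least 0.5, with 11832 genes passing in all. FPKM is the number of fragments per kilobase of listed gene length, scaled to the fragments of the library. C2C12 is an established mouse myoblast line that forms myotubes when serum is reduced, and the labels describe the cells as PAX7 negative. Poly(A)-enriched RNA was sequenced in 16 libraries that fall into 4 groups of 4. Control GM libraries came from wild-type C2C12 cells growing in medium with 20% FBS, and control DM3 libraries from the same control populations after 3 days in 2% HS. tKO GM and tKO DM3 libraries came from cells with the genes of miR-1a-1, miR-1a-2 and also miR-206 knocked out together (tKO), at the same stages. The controls were 2 populations and the tKO cells 2 clones, so that differences between tKO and control also hold whatever sets these clones apart. Each population or clone was sampled at each stage as BR1 and BR2. The labels do not say that these were separate cultures, so p-values measure the spread between these libraries. The study's title raises the question of what the miR-206 family contributes to myogenesis in culture.

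SWI/SNF (BAF) complexes use the energy of ATP to slide or evict nucleosomes and so open DNA to transcription factors. Each complex holds 1 of the ATPases BRG1 (Smarca4) or BRM (Smarca2) and 1 of the alternative BAF60 proteins BAF60a (Smarcd1), BAF60b (Smarcd2) or BAF60c (Smarcd3). Core subunits include BAF47 (Smarcb1), BAF155 (Smarcc1), BAF170 (Smarcc2) and BAF57 (Smarce1), not all of them in every form of the complex. BAF60c binds MyoD and is known for bringing BRG1 to muscle genes, and BAF60a and BAF60b messages have been reported as targets of the muscle microRNAs miR-1, miR-206 and miR-133. The comparison of the 3 BAF60 genes between stages therefore asks whether transcripts moved from Smarcd1 and Smarcd2 towards Smarcd3, and the comparison of genotypes asks whether that differed without miR-1a and miR-206.

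The microRNA sequences are shown because the seed, bases 2 to 8 in capitals, defines the sites searched for in the 9 messages. miR-206 is one of the deleted microRNAs, and miR-133b is encoded close to it. Both lie on the + strand of chromosome 1 at chr1:20679055-20679076 and chr1:20682834-20682855, in RefSeq on GRCm38.p6.
mmu-miR-206-3p: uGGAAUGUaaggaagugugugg
mmu-miR-133b-3p: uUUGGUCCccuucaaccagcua
miR-1a-3p is named here only.

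The letters ACATTCCA, ACATTCC and CATTCCA (miR-1 and miR-206, which share a seed) and GGACCAAA, GGACCAA and GACCAAA (miR-133) were searched on the sense strand of annotated 3′ UTRs (GENCODE M21, GRCm38), each position counted once under the longest match. Of the 9 genes, 6 held a miR-206 match in their longest 3′ UTR and 2 a miR-133 match. Over the 10806 tested genes with a 3′ UTR the shares were 19.0% and 15.1%, without regard to UTR length. The genes whose message differed between genotypes at DM3, Smarcd1 and Smarcb1, are shown with their matches in capitals, and Smarcc1 and Smarca4 are shown for contrast, as genes with a match and no called difference.
Smarcd1, miR-206 match, chr15:99712501-99712530, + strand: cttgcttgaggCATTCCAggggacttggct
Smarcd1, miR-133 match, chr15:99713909-99713938, + strand: tttgttttcatGGACCAAAattttttttgt
Smarcb1, miR-206 match, chr10:75896893-75896922, - strand: cccttcagcacACATTCCAtttgctaaacc
Smarcc1, miR-206 match, chr9:110239075-110239104, + strand: tctgagacctcACATTCCAtctgttgtcac
Smarca4, miR-206 match, chr9:21702969-21702998, + strand: accagACATTCCtgagtcctgaccccgagg
Smarca4, miR-206 match, chr9:21704022-21704051, + strand: gtgtatcaagtACATTCCtagagcctacag
Smarcc2 and Smarce1 each held 1 CATTCCA match, and Smarca2 held 1 GACCAAA match. None of these letters was found in the 129 bases of the Smarcd3 3′ UTR or the 887 bases of the Smarcd2 3′ UTR. Such a match is a description of the sequence and does not show a working site.

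Depth ranged from 22642563 to 56585952 fragments per library. Myotube markers marked the stages (9 of 10 tested rose in control and 10 in tKO cells, and none was called between genotypes), and the FPKM sum of the 12 genes lay between 32.2 and 99.4 at GM and between 630 and 2002 at DM3. The BR2 libraries of both tKO clones at DM3 stood apart, with sums of 630 and 678, against 1906 and 1808 in the BR1 libraries of the same clones and 1392 to 2002 in control DM3. Results that rest on these libraries are given with and without them. Among the factors that define myoblasts, Myf5 was present in GM (11.5 to 20.6 FPKM), whereas Myod1, the partner of BAF60c, had 0 fragments in all 4 control GM libraries, which allows up to 3, and at most 3 in tKO GM. At DM3 Myod1 reached 0.746 to 3.41 FPKM. The BAF60 stage comparisons here thus start from cells with almost no Myod1 message and cover such cells only. The deleted microRNA genes were not analysed here. Their host transcript at the miR-206 locus, listed as mmu-mir-133b, had between 59 and 608 fragments per library at control DM3, against 14 to 152 for tKO DM3, so its ranges overlapped and it gives no check of the deletion.

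Smarcd1, which encodes BAF60a, was the BAF60 gene that changed most between stages. It lies on chromosome 15 (99702287 to 99713995, + strand, GRCm38). In control GM, BR1 and BR2 of population 1 had 10.9 and 11.3 FPKM and those of population 2 had 11.04 and 12.3 FPKM. In control DM3 the same order gave 5.05, 4.71, 5.01 and 5.53 FPKM. Every control DM3 library lay below every control GM library, and the mean went from 11.4 ± 0.626 to 5.08 ± 0.338 FPKM (SD, n = 4). How common such non-overlap of stages was over all tested genes is not given here. On the log2(FPKM + 1) scale, on which all differences and tests below are given, Smarcd1 fell by 1.03 (SE 0.101, limma, Benjamini-Hochberg adjusted p = 3.55e-07).

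The fall of Smarcd1 was also present in tKO cells, ending at a higher level. Its FPKM in BR1 and BR2 was 11.2 and 13.1 in clone 1 and 10.9 and 11.5 in clone 2 at GM, and at DM3 it was 6.34 and 7.83 in clone 1 and 8.45 and 7.07 in clone 2. The stages did not overlap, and the fall was 0.60 (SE 0.101, limma adjusted p = 8.79e-05). All 4 tKO DM3 libraries lay above the highest control DM3 library, at 5.53 FPKM.

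Smarcd2, which encodes BAF60b, had the highest FPKM of the BAF60 genes at both stages, with listed gene lengths, and was not called in control cells. It lies on chromosome 11 (106263179 to 106272972, - strand). Control GM libraries had 20.3 and 19.9 FPKM (population 1) and 20.3 and 18.2 FPKM (population 2), and control DM3 libraries 22.4, 19.9, 22.3 and 22.1 FPKM in the same order. These ranges overlapped, and the difference of 0.13 had a 95% interval of -0.08 to 0.34 (limma adjusted p = 0.255). In tKO cells the FPKM was 20.4, 17.2, 17.7 and 18.4 at GM and 24.9, 19.7, 26.0 and 24.98 at DM3, with BR1 and BR2 of clone 1 first. Here Smarcd2 rose by 0.35 (SE 0.0983, limma adjusted p = 0.00522), although BR2 of clone 1 at DM3 stayed within the GM range.

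Smarcd3, which encodes the muscle and heart variant BAF60c, had the lowest FPKM of the BAF60 genes at GM in both genotypes, with lengths as the table lists them, and was not called in control cells. It lies on chromosome 5 (24590818 to 24602012, - strand). Control GM libraries had 7.99 and 6.70 FPKM (population 1) and 6.80 and 6.10 FPKM (population 2), and control DM3 libraries had 7.78, 7.35, 7.30 and 7.54 FPKM. The highest of these 8 values was a GM library. The difference was 0.11, with a 95% interval of -0.12 to 0.34 (limma adjusted p = 0.392).

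In tKO cells Smarcd3 was called higher at DM3. The clones had 7.20 and 5.79 FPKM (clone 1) and 7.73 and 7.51 FPKM (clone 2) at GM, and 8.92, 9.28, 7.77 and 9.47 FPKM at DM3. The stages did not overlap, the closest libraries being clone 2 BR1 at either stage, and the rise was 0.29 (SE 0.108, limma adjusted p = 0.0258). Without the 2 tKO DM3 BR2 libraries, which held the highest Smarcd3 values and the lowest myotube marker sums, the difference was 0.22 and was not called (adjusted p = 0.160). Without clone 1 the difference was 0.15 (adjusted p = 0.362). The call was also lost with only the compared libraries in the fit (adjusted p = 0.0995), with line averages as units (0.0610), without tKO GM clone 1 BR2 (0.0977), without either tKO DM3 BR2 library alone (0.0538 for clone 1 and 0.0661 for clone 2), and without control population 1 (0.0570) or 2 (0.0634). Of the 33 other settings, 24 kept the call. The difference between the stage changes of the genotypes was itself not called for Smarcd3 (interaction 0.18, adjusted p = 0.688).

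**Figure D1:**
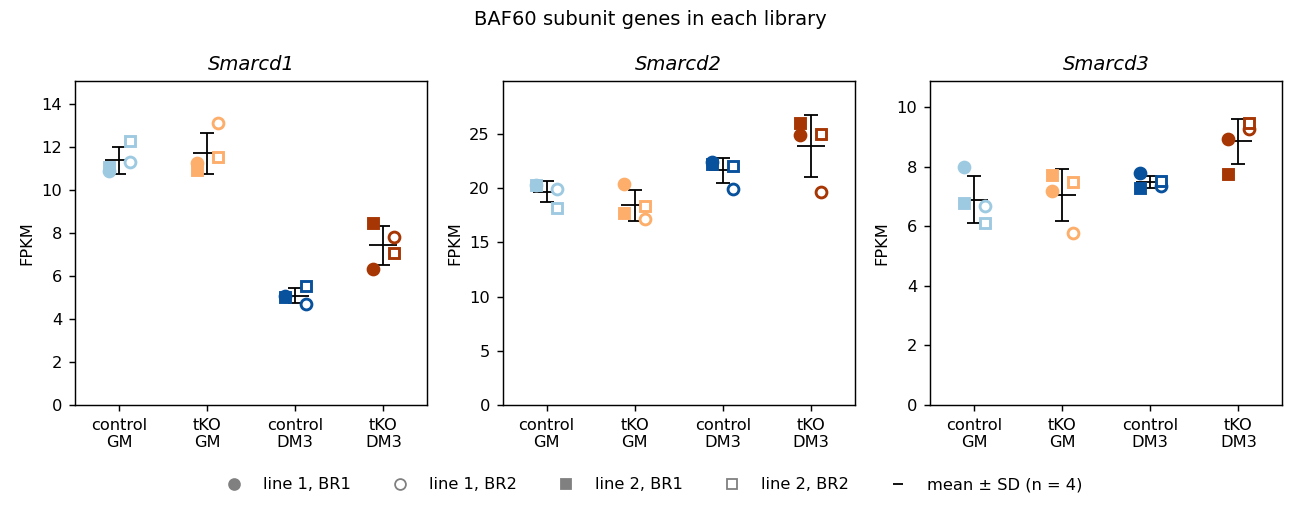
FPKM of the 3 BAF60 genes in each library, by group on the x axis; lines 1 and 2 are the control populations or the tKO clones, filled symbols BR1 and open symbols BR2, and bars the mean and SD of 4 libraries. Smarcd1 is between 10.9 and 13.1 FPKM at GM and between 4.71 and 8.45 at DM3, with tKO above control, while the Smarcd2 and Smarcd3 ranges of the control stages overlap.

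The Smarcd3 signal carries a limit of its own. Its listed span shares 3578 bases with Chpf2, a chondroitin polymerizing factor gene on the opposite strand, and 48.2% of the annotated Smarcd3 exon bases are also Chpf2 exon bases. Whether counting used the strand is not given in the sources used here. Chpf2 fell in control cells by 0.40 (limma adjusted p = 0.0212), from 13.1 ± 0.656 to 9.83 ± 1.97 FPKM (SD, n = 4), and had 9.18 ± 1.86 and 11.01 ± 0.799 FPKM in tKO GM and DM3. Its part in the Smarcd3 values was not tested. No annotated exon overlap of this size touched another of the 9 genes; the next was 7.13% of Smarcd1 exon bases shared with Gm17349, at a mean of 0.474 FPKM.

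The scaling of the libraries decided whether Smarcd2 and Smarcd3 were called in control cells. As deposited, the median difference of all 11832 genes between control DM3 and control GM was -0.15, and with median-of-ratios scaling, which sets the typical gene of each library equal, it was 0.01. Under that scaling Smarcd3 was higher by 0.29 (adjusted p = 0.0234), Smarcd2 by 0.33 (adjusted p = 0.0184) and Smarca2 by 0.75, while Smarca4 was no longer called (-0.20, adjusted p = 0.114). Smarcd1 was lower under both (-0.84 after rescaling, adjusted p = 1.87e-06), as were Smarcb1, Smarcc1 and Smarce1. A rise of Smarcd3 in control cells was thus seen relative to the typical gene and not in FPKM. In tKO cells both Smarcd3 and Smarcd2 were called as deposited. There the same scaling gave rises of 0.44 for Smarcd3 (limma adjusted p = 0.00157) and 0.52 for Smarcd2 (adjusted p = 9.00e-04).

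**Figure D2:**
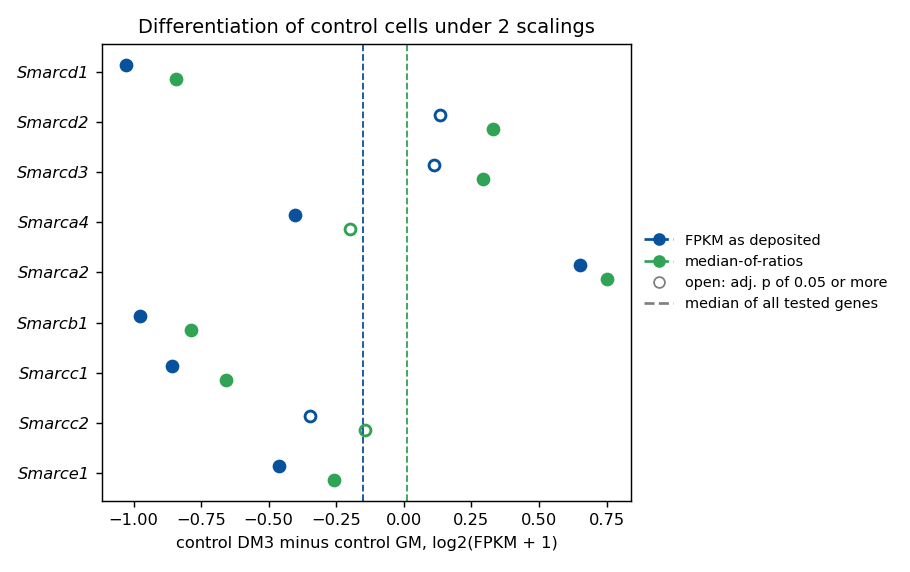
Difference of log2(FPKM + 1) between control DM3 and control GM for the 9 genes, from FPKM as deposited (blue) and after median-of-ratios scaling (green), with filled points called at an adjusted p under 0.05 and dashed lines at the median of all tested genes (-0.15 and 0.01). Every gene lies further to the right after rescaling, and Smarcd2 and Smarcd3 become called while Smarca4 does not stay so.

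As a share of the summed FPKM of the 3 BAF60 genes, Smarcd1 was smaller at DM3, and the shares of Smarcd2 and Smarcd3 were larger in turn, although neither gene was called in control cells as deposited. In control cells the Smarcd1 share was 30.02% ± 2.48 at GM and 14.8% ± 0.631 at DM3, the Smarcd2 share 51.8% ± 1.498 and 63.3% ± 0.916, and the Smarcd3 share 18.1% ± 1.59 and 21.9% ± 0.818 (SD, n = 4). The lowest Smarcd3 share at control DM3, 21.1%, was above the highest at control GM, 20.4%. The sum itself was 38.0 ± 1.05 FPKM at GM and 34.2 ± 1.52 at DM3. These shares are a description and carry no test.

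In tKO cells the Smarcd3 share was 19.0% ± 2.24 at GM and 22.2% ± 2.82 at DM3, and the stages overlapped, with clone 2 BR1 at DM3 (18.4%) under 3 of the 4 GM libraries. The Smarcd1 share went from 31.5% ± 3.29 to 18.5% ± 2.55, and its lowest value, 15.8% in clone 1 BR1, was just above the highest control DM3 value, 15.7%. The Smarcd2 share at tKO DM3 was 53.5% in clone 1 BR2 and 60.2% to 62.0% in the other libraries. The ranks of the BAF60 genes depended on the length used. The table lists 3774 bases for Smarcd3, against 1735 in its longest coding transcript, and with the latter the Smarcd3 share was 32.9% at control GM and 38.1% at control DM3, above Smarcd1 at both stages (23.9% and 11.3%). Smarcd2 then still had the largest mean share in each group. At tKO DM3, however, its lowest share was 41.6% and the highest Smarcd3 share 42.7%.

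**Figure D3:**
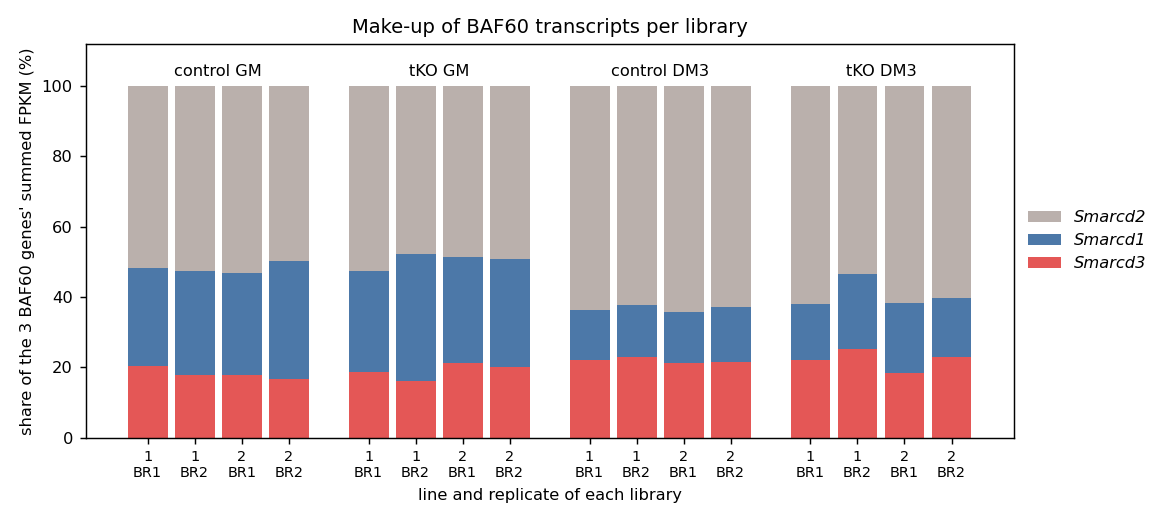
Share of each BAF60 gene in the summed FPKM of the 3 genes, 1 bar per library, labelled by line (population or clone) and BR number. The Smarcd1 segment is 27.8% to 36.3% at GM and 14.3% to 21.3% at DM3, and the Smarcd2 segment, with listed gene lengths, is the largest in every library.

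The ATPase genes went in opposite directions with differentiation of control cells. Smarca4, which encodes BRG1 and lies on chromosome 9 (21616169 to 21704230, + strand), had 49.4, 46.7, 46.1 and 42.1 FPKM in control GM and 39.3, 29.5, 35.3 and 34.8 FPKM in control DM3. The stages did not overlap and Smarca4 fell by 0.40 (SE 0.114, limma adjusted p = 0.00569), though this call was lost under median-of-ratios scaling. In tKO cells it had 38.5 ± 2.24 FPKM at GM and 33.2 ± 4.89 at DM3 (SD, n = 4), which overlapped (-0.22, adjusted p = 0.108). The tKO difference was called without the 2 tKO DM3 BR2 libraries (-0.33, adjusted p = 0.0458).

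Smarca2, which encodes BRM and lies on chromosome 19 (26605115 to 26778321, + strand), was low throughout. Control GM libraries had 0.847, 0.694, 0.501 and 0.613 FPKM and control DM3 libraries 1.45, 1.69, 1.18 and 2.20 FPKM. Every DM3 library was above every GM library, and the rise of 0.65 passed the threshold narrowly (SE 0.267, limma adjusted p = 0.0442). It did not pass without a low-value filter, with line averages as units, or without any one of 9 libraries or of the control populations, with adjusted p up to 0.334.

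In tKO cells Smarca2 had 0.559, 0.568, 0.243 and 0.110 FPKM at GM and 2.22, 5.48, 0.842 and 1.83 FPKM at DM3, clone 1 first. It rose by 1.25 (SE 0.267, limma adjusted p = 6.93e-04), and by 0.85 without the 2 tKO DM3 BR2 libraries, which were the higher libraries of each clone. The spread was widest here: clone 1 was above clone 2 at both stages. Smarca2 made up 1.42% ± 0.252 of the summed ATPase FPKM in control GM and 4.54% ± 1.35 in control DM3, so that Smarca4 remained the main ATPase message in every library, at 86.0% or more.

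Smarcb1, which encodes BAF47 and lies on chromosome 10 (75896769 to 75921617, - strand), fell with differentiation much as Smarcd1 did. Control GM libraries had 15.7 and 15.3 FPKM (population 1) and 17.4 and 13.6 FPKM (population 2), and control DM3 libraries 8.13, 6.03, 8.37 and 7.15 FPKM. The groups did not overlap, and the fall was 0.98 (SE 0.115, limma adjusted p = 2.29e-06). In tKO cells the values were 16.7, 14.4, 16.2 and 14.1 FPKM at GM and 11.5, 9.66, 11.4 and 9.66 FPKM at DM3, a fall of 0.50 (adjusted p = 0.00118). Within tKO DM3 the BR1 libraries of both clones were above both BR2 libraries.

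The BAF155 gene Smarcc1 and the BAF57 gene Smarce1 also fell in both genotypes. Smarcc1 (chromosome 9, 110132037 to 110240178) had 33.4 ± 1.48 FPKM at control GM and 18.0 ± 2.08 at control DM3 (SD, n = 4), a fall of 0.86 (limma adjusted p = 9.96e-06), and 28.2 ± 1.24 and 20.3 ± 3.70 FPKM at the tKO stages, a fall of 0.47 (adjusted p = 0.00222). Smarce1 (chromosome 11, 99209047 to 99231017) had 43.4 ± 1.79 and 31.3 ± 1.70 FPKM at the control stages and 41.4 ± 1.34 and 29.9 ± 2.52 at the tKO stages, and fell by 0.46 in both (adjusted p = 1.70e-04 and 1.79e-04). The stages of both genes did not overlap in either genotype.

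The BAF170 gene Smarcc2 (chromosome 10, 128459236 to 128490173) was not called between stages in either genotype. Control GM libraries had 41.2, 38.3, 40.3 and 30.8 FPKM and control DM3 libraries 27.2, 28.0, 26.7 and 35.8 FPKM, a difference of -0.35 with a 95% interval of -0.79 to 0.10 (limma adjusted p = 0.168). In tKO cells the values followed the BR number rather than the clone. At GM, BR1 libraries had 34.2 and 36.0 FPKM and BR2 libraries 21.1 and 21.7, while at DM3 BR1 libraries had 19.0 and 21.6 and BR2 libraries 37.3 and 33.7. Smarcc2 was called lower in control DM3 under 3 other settings: with only the compared libraries in the fit (adjusted p = 0.0212), with line averages as units (0.0236) and with the BR number within each stage as a replicate block (0.0333).

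**Figure D4:**
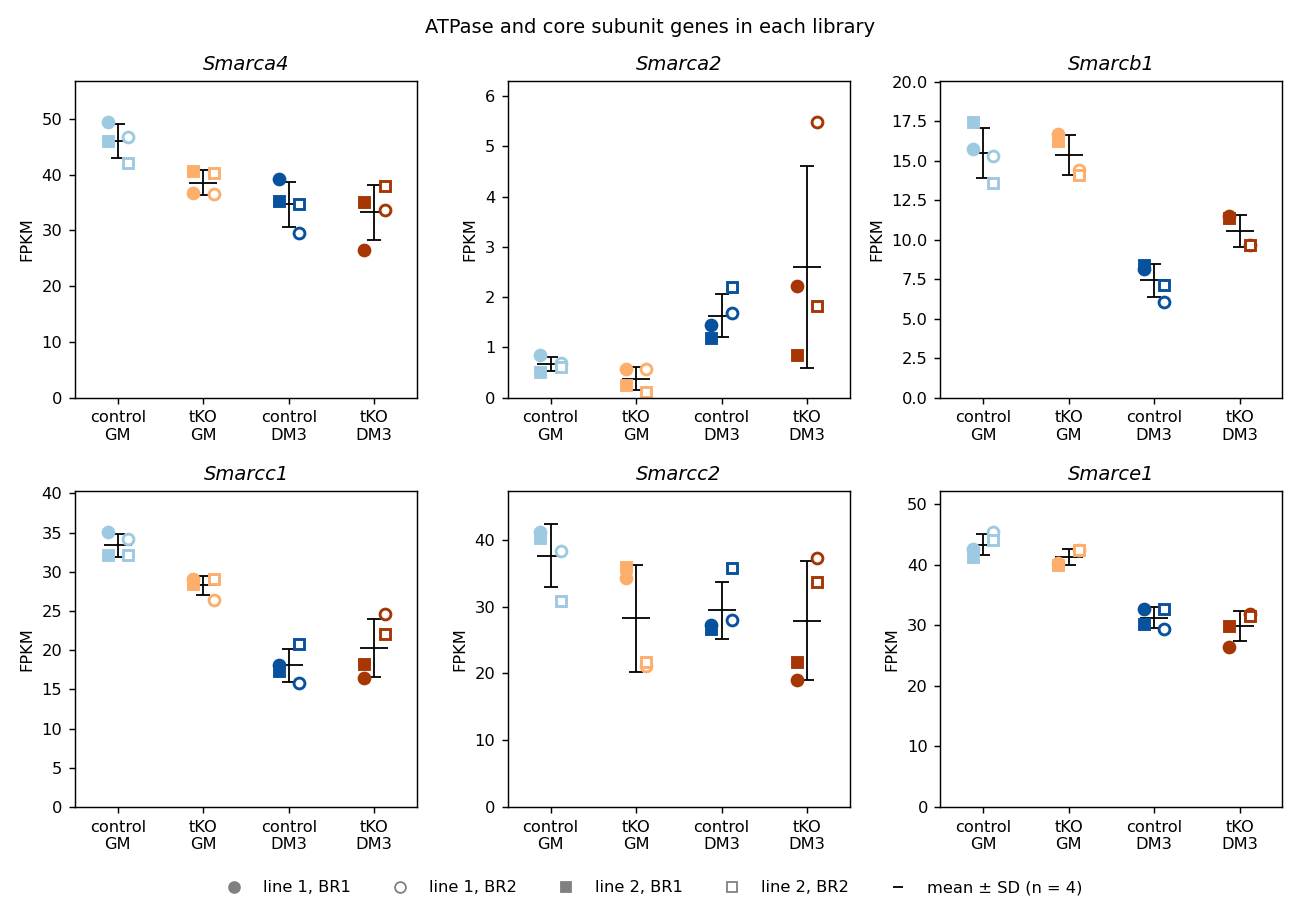
FPKM of the ATPase genes Smarca4 and Smarca2 and of 4 core subunit genes in each library, by group; symbols as in the plot of BAF60 levels, bars the mean and SD of 4 libraries. Smarcb1 lies at 13.6 to 17.4 FPKM in GM libraries, 6.03 to 8.37 for control DM3 and 9.66 to 11.5 for tKO DM3, and Smarcc2 splits by BR number in the tKO groups.

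Counted together, 6 of the 9 genes were called between control DM3 and control GM, 1 higher and 5 lower, when 61.5% of all tested genes were called (23.2% higher and 38.3% lower). In tKO cells 7 were called, 3 higher and 4 lower, against 60.9% of all genes (24.9% higher and 36.0% lower). Counts of this size are near the background, so the number called says little about these genes as a set. Stages did not overlap for 1 gene higher and 5 lower in control cells, and for 2 higher and 4 lower in tKO cells. The share of all tested genes with such stages is not given here, so non-overlap is not shown to set these genes apart. Their median difference was -0.40 in control cells and -0.22 in tKO cells, beside -0.15 and -0.12 over all genes. In RNA from whole cultures, fewer cells of a type and less RNA per cell cannot be told apart. All 10 proliferation markers fell in both genotypes, with summed FPKM of 557 to 719 at GM and of 69.7 to 184 at DM3, and their part in the falls of the 5 genes was not tested. Marker sums of smooth muscle (5 genes, 1796 to 5458 FPKM at GM, 772 to 1533 at DM3) and of neurons (5 genes, 2.94 to 8.41 FPKM at GM, 8.43 to 29.3 at DM3) also separated the stages, and their part was not tested either. The smooth muscle sum was mostly Acta2 (1771 to 5436 FPKM at GM, 735 to 1500 at DM3), while Mylk and Smtn of that list rose. The neuron sums of the stages nearly met, and only Map2 and Tubb3 of that list were tested.

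Between tKO and control cells in growth medium none of the 9 genes was called by limma, against 2.06% of all tested genes. Only Smarca4 had an unadjusted p under 0.05 (-0.25, limma adjusted p = 0.263). All 4 tKO GM libraries lay below all 4 control GM libraries for Smarca4 (36.5 to 40.6 against 42.1 to 49.4 FPKM) and for Smarcc1 (26.4 to 29.1 against 32.1 to 35.1 FPKM), an arrangement seen in 8.62% of all tested genes. For the BAF60 genes the 95% intervals of the difference were -0.18 to 0.25 for Smarcd1, -0.30 to 0.12 for Smarcd2 and -0.20 to 0.26 for Smarcd3. The remaining genes differed by -0.43 (Smarcc2, limma adjusted p = 0.303), -0.29 (Smarca2), -0.07 (Smarce1) and -0.01 (Smarcb1).

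After 3 days of differentiation 2 of the 9 genes were called, both higher in tKO cells, when 3.38% of all genes were called and 2.02% were called higher. Smarcd1 was 1.46 times as high in mean FPKM, at 7.42 ± 0.913 against 5.08 ± 0.338 (SD, n = 4), a difference of 0.47 (SE 0.101, limma adjusted p = 0.0160). Smarcb1 was 1.42 times as high, at 10.5 ± 1.02 against 7.42 ± 1.06 FPKM, a difference of 0.46 (SE 0.115, adjusted p = 0.0353). For both genes, all 4 tKO libraries were above all 4 control libraries, which 4.22% of all genes showed. Within BR1 the Smarcd1 difference was 0.47 and within BR2 0.47, and those of Smarcb1 were 0.43 and 0.49.

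These differences were small and their calls fragile. Of the 31 other settings, 24 kept the Smarcd1 call and 16 the Smarcb1 call. With the BR number as a replicate block both were kept (limma adjusted p = 0.0132 and 0.00485). Both calls were lost when only the DM3 libraries were fitted (adjusted p = 0.143 and 0.170) and with line averages as units (0.0877 and 0.0747). That of Smarcb1 was also lost without a low-value filter (0.0529) and with median-of-ratios scaling (0.0608). Without the 2 tKO DM3 BR2 libraries, Smarcb1 was still called (0.57, adjusted p = 0.0467) and Smarcd1 was not (0.46, adjusted p = 0.0807). Leaving out control DM3 population 1 BR2 alone ended both calls (adjusted p = 0.0602 for Smarcd1 and 0.127 for Smarcb1), as did leaving out either control population or tKO clone 2. The Smarcb1 call alone was also lost without control GM population 1 BR1 or BR2, control DM3 population 1 BR1 or population 2 BR2, tKO DM3 clone 1 BR2 or clone 2 BR1 (adjusted p = 0.0503 to 0.0792), and without clone 1 (0.0836).

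The other 7 genes were not called at DM3. Smarcd2 differed by 0.13 (95% interval -0.08 to 0.34) and Smarcd3 by 0.21 (-0.02 to 0.44, limma adjusted p = 0.335). Smarcd3 had 8.86 ± 0.760 FPKM in tKO and 7.49 ± 0.217 in control cells, overlapping only through clone 2 BR1, at 7.77 FPKM against the highest control value of 7.78. Smarca2 and Smarcc1 were higher in tKO cells by 0.31 and 0.15 with all libraries and lower by 0.10 and 0.05 without the 2 tKO DM3 BR2 libraries, and neither was called. Smarca4, Smarcc2 and Smarce1 differed by -0.07, -0.12 and -0.06. Without those 2 libraries the Smarcc2 difference was -0.51 (limma adjusted p = 0.290).

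The test of whether the stage change itself differed between genotypes called none of the 9 genes, with 0.254% of all genes called. Of the 9 genes, 3 had an unadjusted p under 0.05. For Smarcd1 the fall was smaller in tKO cells by 0.43 (SE 0.143, limma adjusted p = 0.278), for Smarcb1 by 0.47 (adjusted p = 0.289) and for Smarcc1 by 0.39 (adjusted p = 0.404). The calls of Smarcd2, Smarcd3 and Smarca4 in 1 genotype and not the other are therefore not shown to differ between genotypes (interaction adjusted p = 0.583, 0.688 and 0.703). For Smarca2, Smarcc2 and Smarce1 the interaction was 0.60, 0.32 and 0.0027 (limma adjusted p = 0.583, 0.732 and 0.998).

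**Figure D5:**
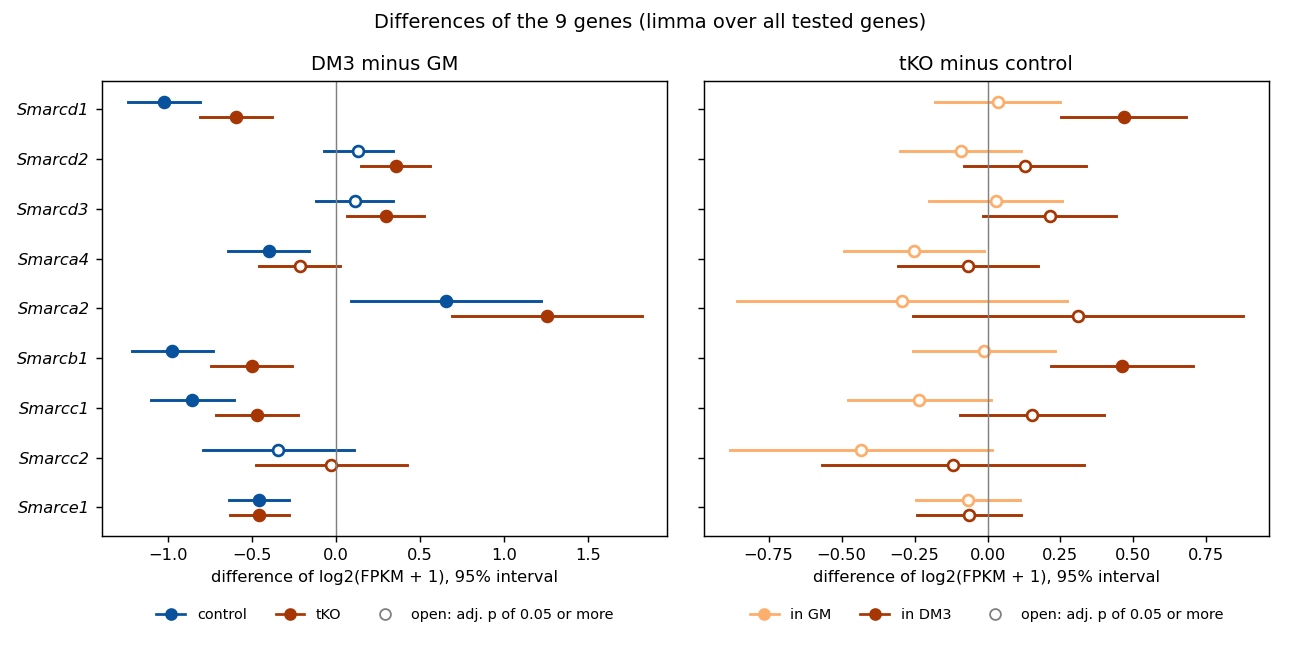
Differences of log2(FPKM + 1) with 95% intervals for the 9 genes, DM3 minus GM on the left (control blue, tKO red) and tKO minus control on the right (GM light, DM3 dark); filled points were called at an adjusted p under 0.05. Smarcd1 and Smarcb1 are the genes called between genotypes at DM3, at 0.47 and 0.46, and none is called at GM.

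The order of the 9 genes in FPKM was similar in the 4 groups. Smarca4 and Smarce1 took the first and second place in every group, with overlapping ranges, and Smarca2 the last. In control GM Smarcd2, Smarcb1, Smarcd1 and Smarcd3 followed in places 5 to 8, each range apart from the next. In control DM3 Smarcd3 (7.49 FPKM) and Smarcb1 (7.42 FPKM) overlapped, and Smarcd1 (5.08 FPKM) had dropped below both. The place of Smarcb1 rests on a listed length of 7441 bases, 4.48 times its longest coding transcript. A shorter length would raise its FPKM, so the order, with its first and second places, holds for the listed lengths only.

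Other subunits of the family included called genes in both directions between stages. Of 22 listed BAF, PBAF and ncBAF subunits outside the 9 genes, 18 were tested. In control cells 9 fell, led by Actb (log2 -2.31), the actin that is also a BAF subunit, the PBAF subunit Arid2 (-1.35) and Dpf1 (-1.32), while Phf10 (0.50) and Gltscr1l (0.33) rose and 7 did not pass (list median -0.39). Over all tested genes 38.3% fell and 23.2% rose, with a median of -0.15. In tKO cells 10 fell, with Actb (-2.03), Dpf1 (-1.25) and Actl6a (-1.13) first, and Phf10 (0.46) and Gltscr1l (0.36) rose (list median -0.48), beside 36.0% lower, 24.9% higher and a median of -0.12 over all tested genes. Dpf3, a BAF subunit known from heart and muscle, had 1 to 16 fragments per library and was not tested. None of the 18 was called between genotypes by limma at either stage, the largest differences being Bcl7b at GM (0.33, adjusted p = 0.260) and Arid2 at DM3 (0.38, adjusted p = 0.518).

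Of 25 other remodelling enzymes 23 were tested, and 15 fell and 1 rose in control cells (list median -0.54), against 11 and 2 in tKO cells (list median -0.46). The shares over all tested genes were again 38.3% lower and 23.2% higher in control cells (median -0.15), and 36.0% and 24.9% in tKO cells (median -0.12). The largest falls were the same in both: Hells (-2.54 in control and -2.60 in tKO cells), the ISWI ATPase Smarca5 (-1.81 and -1.63) and the recombination factor Rad54l (-1.60 and -1.37). Smarcal1 rose in both (0.35 and 0.43) and Chd2 in tKO cells (0.48). None was called between genotypes by limma; the largest differences were the NuRD ATPase Chd3 at GM (-0.83, adjusted p = 0.0524) and Smarcad1 at DM3 (0.38, adjusted p = 0.458).

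Among 19 reported muscle partners of BAF60c and BRG1, 17 were tested, and 5 rose and 8 fell in control cells, near the 23.2% and 38.3% of all tested genes. Myog, a myogenic factor of differentiating cells, had a mean of 0.00478 FPKM in control GM against 5.96 in control DM3, and of 0.0483 against 12.96 in the tKO groups. Myod1 had 0 against 1.90 FPKM in the control groups and 0.0196 against 2.34 in the tKO groups, and both genes rose in either genotype. Mef2d rose by 1.04 on the log2 scale in control cells. Mapk11, a p38 kinase, fell by 1.34 and the acetyltransferases Ep300 and Crebbp by 1.05 and 1.04 in control cells. In tKO cells 6 rose, among them Mef2a (0.89), and 6 fell, among them Prmt5 (-1.13), Mapk11 (-0.95) and Ep300 (-0.81). The list medians were -0.18 and -0.03, beside -0.15 and -0.12 over all tested genes. None was called between genotypes by limma (Myf5 -0.40 at GM, adjusted p = 0.498, and Myog 0.90 at DM3, adjusted p = 0.253).

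Across the 16 libraries the genes most like each BAF60 gene are named by Pearson's r of log2(FPKM + 1), as a description of points that share stage, genotype and depth. For Smarcd3 they were Lace1 (0.878), Gys1 (0.876), Armcx2 (0.874), Pcdhga12 (0.871) and Ift122 (0.844). For Smarcd1 they were Cdk8, Tpm4 and Syde1, each at 0.976, and for Smarcd2 Adam19 (0.887), Dtx4 (0.882) and Nxn (0.870). Among the 9 genes themselves, Smarcd1 ran closest to Smarcb1 (r = 0.919) and Smarcc1 to Smarce1 (r = 0.934), while Smarcd1 and Smarcd3 gave -0.471. After each group's mean was taken away, the value for Smarcd1 and Smarcb1 was -0.219 and that for Smarcd1 and Smarcd3 was -0.637.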

How the data were processed

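Per the submitters' processing notes, reads were processed with STAR and DESeq against mm10. Versions, the counting program, the annotation release and the use of strand are not given in the sources used here. The authors deposited 1 table of FPKM values with gene lengths and coordinates, 1 column per library, not pooled, and all 16 columns were matched to samples (0 left over). Multiplied by length, 100% of the FPKM values came out as whole fragments, which gave the depth. The tolerance was 0.01 for small counts and grew with the count, so that the largest counts could not fail. Depth was 22642563 to 56585952 fragments per library. The floor of 3 fragments covers counting error only, because reads that carry no molecular identifiers can be copies.

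The filter, a mean FPKM of at least 0.5, kept 11832 genes. Limma 3.58.1 in R 4.3.3 was fitted to log2(FPKM + 1) of all 16 libraries with 1 mean per group, moderated with trend and robust settings, and p-values were adjusted by Benjamini-Hochberg over all tested genes. A gene was called at an adjusted p under 0.05. Differences on this scale understate the change of low genes. Tables and figures were made with Python 3.11.15, numpy 2.4.6, pandas 2.3.3 and matplotlib 3.10.9. Tested on simulated tKO and control DM3 data with 200 of 11832 genes changed, the procedure found 100% of 2-fold and 99% of 4-fold changes, with 6 false calls (2.93% of calls). The simulated counts were drawn around control GM means, with the same dispersion for every gene and no differences between lines or BR numbers. Changes under 2-fold were not simulated. The check therefore gives neither the power nor the false calls to be expected for differences of the size reported here.

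The 9 genes and the lists were chosen with earlier results of these data known. All 9 are named in every comparison. From each list, at most 3 called genes per direction are named, or the gene with the largest change where none was called, and 5, 3 and 3 genes most like Smarcd3, Smarcd1 and Smarcd2. Lists of markers for myotubes, proliferating cells, adipocytes, osteoblasts, smooth muscle and neurons were also run, and the closing section gives those not in the report.

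BR numbers were checked for pairing. Deviations from group means were correlated between libraries of the 2 genotypes. In GM the mean was 0.250 for the same BR number (lowest 0.0955) and -0.249 for other numbers (highest -0.0558). In DM3 it was 0.187 (lowest -0.224) and -0.188 (highest 0.338). Deviations cancel within each group, so the mean for other numbers must mirror that for the same number and is no separate observation. Same-numbered libraries ran together in GM, where even the lowest value was positive, while the DM3 ranges overlapped. The labels do not call the numbers pairs, so the main fit left them out. Fits with the BR number as a replicate block were run as alternatives. Control populations and tKO clones are the same cells in GM and DM3, which pairs the stages by line, and a fit with that replicate block called the same 6 and 7 genes in control and tKO cells. No 2 libraries of a group agreed within sampling noise (chi-square per gene 20.5 to 256 over 24 pairs).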

Additional observations from a re-analysis of the deposited data

Results flagged for a closer look

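Of 48 groups of 4 libraries checked for a library far from the other three, 2 had one, and chance alone gives about 1 in 20. For Smarcd2, control DM3 population 1 BR2 was low, at 19.9 FPKM, with the remaining control DM3 libraries at 22.1 to 22.4. For Smarcc2, control DM3 population 2 BR2 was high, at 35.8 FPKM, against 26.7 to 28.0.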

How the results depend on the processing

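Pseudocount 0.1, no or a stricter filter, median-of-ratios scaling, voom on fragment numbers, only the compared libraries, the blocks, line as a random effect, line averages, and leaving out each library or line were tried. Leaving both tKO DM3 BR2 libraries out and the coding transcript length were added after seeing the data. Of the results for single genes, 1343 kept direction and side of the threshold, 48 lost and 7 gained a call, and 37 turned direction. The 2 genes called between genotypes at DM3 became 1 with no filter, 1 with median-of-ratios scaling, 0 with only the compared libraries, 0 with line averages, 1 without both tKO DM3 BR2 libraries, and 0 to 2 leaving out 1 library or line. Between 4 and 7 genes were called between stages, and 0 between genotypes at GM or in the interaction, under every setting tried. The BR number as a replicate block moved no count by over 1.5 times (6, 7, 0, 2 and 0 genes), and within each stage it added Smarcc2 in control cells (7), as did only the compared libraries and line averages (adjusted p = 0.0212 and 0.0236). The Smarcd3 share of BAF60 was 22.4% and 23.3% (control and tKO GM) and 27.3% and 27.4% (control and tKO DM3) by fragments without length, and 32.9%, 34.1%, 38.1% and 38.4% by coding transcript length.

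Directions turned only in results that were not called. With median-of-ratios scaling these were Smarcc2 in tKO DM3 against GM (0.13), Smarcb1 between genotypes at GM (0.0096) and the Smarce1 interaction (-0.035). Without both tKO DM3 BR2 libraries they were Smarca2 (-0.097) and Smarcc1 (-0.052) between genotypes at DM3 and the interactions of Smarcc2 (-0.071) and Smarce1 (-0.083). Leaving out 1 library or line gave ranges through 0 for Smarcc2 in tKO DM3 against GM (-0.18 to 0.13), between genotypes at GM for Smarcd1 (-0.016 to 0.087), Smarcd3 (-0.076 to 0.13) and Smarcb1 (-0.070 to 0.043), between genotypes at DM3 for Smarca2 (-0.19 to 0.81), Smarca4 (-0.21 to 0.075) and Smarcc2 (-0.27 to 0.041), and for the Smarce1 interaction (-0.040 to 0.060). The causes were not tested. The Smarca2 rise in control cells was lost without any control GM library, control DM3 population 1 BR1 or BR2 or population 2 BR2, tKO GM clone 2 BR1 or tKO DM3 clone 1 BR1. The Smarca4 fall in control cells was lost without population 1 (adjusted p = 0.155) or 2 (0.0585) and the Smarcd2 rise in tKO cells without clone 2 (0.188). Smarca2 was called higher in tKO DM3 without clone 2 (0.81, adjusted p = 0.0482). Depth limits Smarca2 most, with 20 fragments in 1 tKO GM library.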

Other observations

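Of the markers of other cell types, the summed smooth muscle and neuron lists separated the stages in both genotypes, and the adipocyte and osteoblast sums overlapped between stages in each genotype. Summed adipocyte markers (7 genes) were 4.09 to 15.6 FPKM over the 16 libraries, with Lep at 0 fragments in each, and none of 3 tested was called. Osteoblast markers (7 genes) summed to 6.47 to 11.3 FPKM, and of 2 tested Bglap2 rose (1.03 in control and 1.00 in tKO cells) and Runx2 fell with differentiation (-0.32 and -0.53). Smooth muscle markers (5 genes) summed to 1796 to 2977 FPKM at control GM, 1953 to 5458 at tKO GM, 772 to 1249 at control DM3 and 948 to 1533 at tKO DM3. Of 4 tested, Mylk (1.57 and 2.58) and Smtn (0.44 and 0.58) rose and Cnn1 (-1.43 and -1.83) and Acta2 (-1.37 and -1.39) fell in control and tKO cells, and none was called between genotypes. Neuron markers (5 genes) summed to 3.69 to 4.33 FPKM at control GM, 2.94 to 8.41 at tKO GM, 8.43 to 14.01 at control DM3 and 10.6 to 29.3 at tKO DM3. Of 2 tested, Map2 rose with differentiation in both (1.79 and 1.86), and the tubulin gene Tubb3 was higher in tKO than in control DM3, at 4.395 ± 2.40 against 0.980 ± 0.440 FPKM (SD, n = 4, limma adjusted p = 0.02002). Rbfox3, a nuclear marker of neurons, had at most 3 fragments in any library.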
